A study of Mus musculus with 6 samples.

Results

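The genes described here are 10 genes that mark hepatocytes around the central vein of the liver or that respond to WNT signalling: Cyp2e1, Cyp1a2, Glul, Oat, Slc1a2, Rhbg, Lgr5, Rnf43, Axin2 and Tbx3. They were taken by gene symbol from a deposited table of 34745 genes, and each symbol matched 1 row. The table holds messenger RNA sequencing of liver tissue from C57BL/6 mice in 6 libraries that cover 3 tissues in 2 sexes, with 1 library per group. Normal liver came from wild-type mice. Precancerous liver and tumour tissue, the latter labelled hepatocellular carcinoma, came from mice carrying the Hras12V transgene, an activated form of the Ras oncogene. All male tissue was taken at 9 months of age and all female tissue at 15 months, without any treatment. Sex, age and anything else that differed between the male and the female libraries cannot be told apart. Whether RNA of several mice was pooled, whether tumour and precancerous tissue share a mouse, and which promoter drives the transgene are not stated in the labels.

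Hepatocytes differ along the path of blood from the portal vein to the central vein. Endothelial cells at the central vein release WNT ligands and R-spondin 3, which keep beta-catenin active in the neighbouring hepatocytes. Those pericentral hepatocytes make glutamine from ammonium and carry much of the cytochrome P450 metabolism of drugs and alcohol, while periportal hepatocytes make urea and glucose. Beta-catenin acts through TCF/LEF proteins on DNA, and several of its targets, Axin2 and Rnf43 among them, dampen the pathway in turn. In mouse liver tumours, Glul is widely used as a marker of active beta-catenin.

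Sequence before the start sites was read for 7 of the 10 genes from RefSeq (build GRCm38.p6). Lgr5, Tbx3 and Rhbg had no entry. The TCF/LEF core motif was searched as CTTTGA and CTTTGT on both strands, in the 250 bases before each start. It was found in 3 of the 8 windows of these genes (Rnf43 has 2 windows) and in 27.6% of all 32851 windows of this length. Cyp2e1 held 1 match, Cyp1a2 held 2 and Slc1a2 held 2, while the windows of Glul, Oat, Rnf43 and Axin2 held none. The window of Slc1a2 and both windows of Rnf43 lie wholly inside the gene. For Slc1a2, 1 of the matches lies past the first base that GENCODE annotates as exon. A match is a description of the letters alone, and matches did not divide the genes by how their RNA differed between the tissues. Oat, which like the 2 P450 genes fell in the tumours, held none, and Slc1a2, low in the female tumour alone, held 2. The 5 stretches below are shown as examples with and without a match. They run 5′ to 3′ on the gene's strand, with matches in capitals, and stop before the first base that GENCODE annotates as exon. The Cyp2e1 stretch is chr7:140763569-140763738 on the plus strand, and Cyp1a2 is chr9:57683704-57683905 on the minus strand. Oat is chr7:132576399-132576648 on the minus strand. Glul is chr1:153899679-153899928 and Axin2 is chr11:108920099-108920348, both on the plus strand.
Cyp2e1: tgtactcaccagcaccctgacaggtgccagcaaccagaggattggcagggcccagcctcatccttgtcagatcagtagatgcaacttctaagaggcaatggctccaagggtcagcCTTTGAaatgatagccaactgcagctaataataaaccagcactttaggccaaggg
Cyp1a2: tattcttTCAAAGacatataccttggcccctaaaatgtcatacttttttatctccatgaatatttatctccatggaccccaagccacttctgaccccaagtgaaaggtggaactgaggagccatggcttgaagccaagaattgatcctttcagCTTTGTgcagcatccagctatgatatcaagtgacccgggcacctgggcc
Oat: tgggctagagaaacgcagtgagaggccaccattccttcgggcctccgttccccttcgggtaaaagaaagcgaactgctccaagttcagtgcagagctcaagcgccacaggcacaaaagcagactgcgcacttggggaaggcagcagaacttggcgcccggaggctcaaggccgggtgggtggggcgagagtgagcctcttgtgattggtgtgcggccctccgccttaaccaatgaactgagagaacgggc
Glul: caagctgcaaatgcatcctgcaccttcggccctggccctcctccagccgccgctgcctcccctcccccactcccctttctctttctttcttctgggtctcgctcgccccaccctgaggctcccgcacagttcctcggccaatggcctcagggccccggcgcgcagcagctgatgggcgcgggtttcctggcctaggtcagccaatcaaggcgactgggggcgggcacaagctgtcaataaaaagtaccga
Axin2: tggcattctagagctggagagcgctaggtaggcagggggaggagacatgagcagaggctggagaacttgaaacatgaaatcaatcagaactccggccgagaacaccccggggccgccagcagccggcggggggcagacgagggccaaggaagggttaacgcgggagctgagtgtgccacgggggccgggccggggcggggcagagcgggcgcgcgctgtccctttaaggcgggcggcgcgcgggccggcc

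Total counts lay between 5996585 and 7347064 in the male libraries and between 15047022 and 18434508 in the female ones, so that weakly expressed genes were measured less precisely in males. The mitochondrial share of counts went from 4.80% in normal liver to 3.10% in precancerous liver and 1.91% in the tumour in males, and from 7.31% to 5.92% and 3.79% in females. Albumin took 13.7% and 14.0% of counts in the male and female tumours against 5.74% to 10.5% in the other libraries. These shares moved with the tissues compared, and their part in the results was not tested. The mouse Hras row stood between 3.27 and 3.50 FPKM in the male libraries and between 2.05 and 2.84 FPKM in the female ones. FPKM is the count scaled to gene length and library total. Whether transgene reads are counted in that row was not tested. Xist, Ddx3y and Eif2s3y matched the labelled sex of all 6 libraries. Of 8 hepatocyte markers, 1 (Tat) was called lower and none higher between tumour and precancerous liver, as tested below. Among all tested genes 12.1% were lower and 13.8% higher. Between tumour and normal liver 2 markers (Tat and Ttr) were lower and 1 (Trf) higher, beside 16.1% and 17.3% of all tested genes. The 8 markers summed to 71547 FPKM in the male and 69199 in the female tumour against 33434 to 55407 in the other 4 libraries. In tissue, fewer cells of a type and less RNA per cell cannot be told apart.

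Cyp2e1 and Cyp1a2, the pericentral P450 enzymes, were lower in the tumours of both sexes. Cyp2e1, which oxidises ethanol and paracetamol (chr7:140763739-140774975, GRCm38), stood at 3425 FPKM in male normal liver, 2914 in male precancerous liver and 517 in the male tumour. The female values were 4693, 4334 and 144 FPKM in the same order. Both tumours lay below all 4 other libraries, and the female tumour held 3.33% of the precancerous level against 17.7% in the male. Tissues were compared over both sexes with edgeR's quasi-likelihood test, in a model of tissue and sex. Values from it are log2 fold changes with their standard error (SE), and genes with a p under 0.05 after Benjamini-Hochberg adjustment over the 11435 tested are termed called. The spread behind each p-value is that between these 6 libraries only, since no source says that they are separate animals. With 1 library per group, that spread is how far the tissue differences disagree between the sexes. A gene that changed in 1 sex alone thus has a wide spread and is harder to call. Cyp2e1 fell by 3.58 ± 0.69 (SE) from precancerous liver to tumour (adjusted p = 0.0211) and by 3.74 ± 0.69 from normal liver to tumour (adjusted p = 0.0146). Cyp1a2, which metabolises caffeine and aromatic amines (chr9:57676937-57683655), stood at 455, 229 and 79.0 FPKM in males and at 380, 264 and 94.8 in females, ordered normal, precancerous, tumour. It was lower at each step in both sexes, and it was the only one of the 10 genes with a higher FPKM in the female than in the male tumour. Its fall from precancerous liver to tumour was -1.53 ± 0.20 (SE), with an adjusted p of 0.00788, and from normal liver -2.30 ± 0.20, with an adjusted p of 0.00227 in edgeR.

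**Figure D1:**
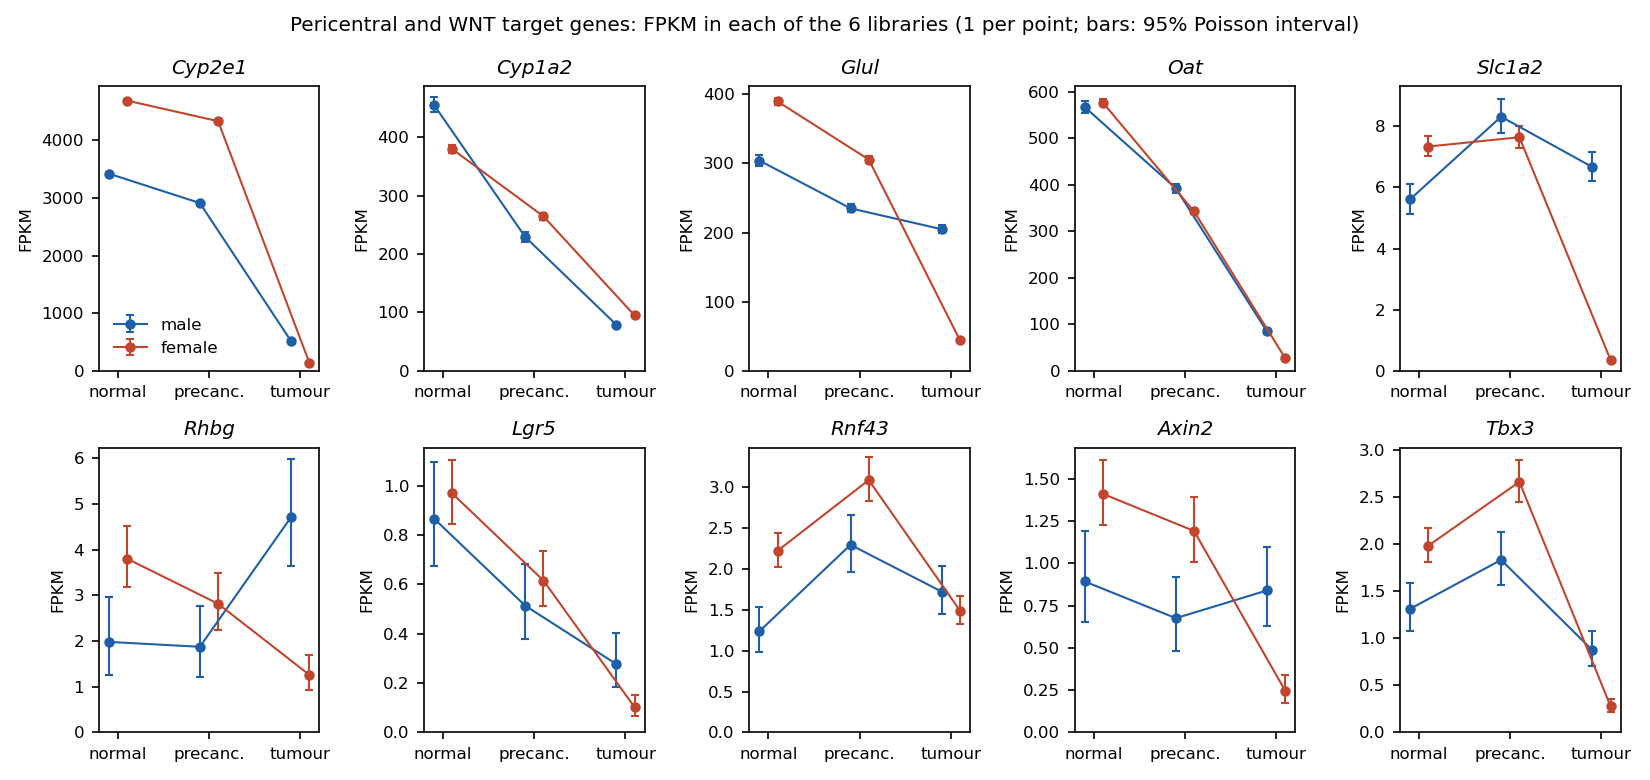
FPKM of each of the 10 genes in the 6 libraries, with tissue on the x axis and a separate linear y axis from 0 for each gene; a point is 1 library and a bar its exact 95% Poisson interval, which covers counting error only. In the female tumour Cyp2e1, Oat and Slc1a2 are near 0 on these axes, while the male tumour keeps 6.67 FPKM of Slc1a2 and 205 FPKM of Glul, against 44.5 FPKM of Glul in the female tumour.

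Of the genes of glutamine and ammonium handling, Glul and Slc1a2 were far lower in the female than in the male tumour. Glul encodes glutamine synthetase, the enzyme that joins ammonium to glutamate (chr1:153899944-153909723). It was measured at 304 FPKM in male normal liver, 235 in male precancerous liver and 205 in the male tumour, and at 390, 306 and 44.5 FPKM in females. The male tumour kept 87.1% of the precancerous level and the female tumour 14.6%. Over both sexes the difference between tumour and precancerous liver was -1.33 ± 0.69 (SE) and was not called (edgeR adjusted p = 0.219). Slc1a2 encodes a glutamate transporter that pericentral hepatocytes carry (chr2:102658659-102790784). It stood at 5.61, 8.31 and 6.67 FPKM in males and at 7.34, 7.64 and 0.361 in females. The 2 tumours differed 18.5-fold in Slc1a2, the widest gap between the sexes among the 10 genes, and the male tumour lay within the range of the 4 other libraries. The fitted difference, -1.75 ± 1.15 (SE), was not called (edgeR adjusted p = 0.314).

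Oat and Rhbg, which belong to the same handling of nitrogen, were also lower in the female tumour. Oat, ornithine aminotransferase, links ornithine to glutamate (chr7:132557475-132576398). Its levels were 567, 392 and 84.7 FPKM in males and 576, 342 and 27.3 in females, so that both tumours lay well below the 4 other libraries. Oat fell by 2.88 ± 0.45 (SE) from precancerous liver to tumour (edgeR adjusted p = 0.0122) and by 3.55 ± 0.46 from normal liver to tumour (adjusted p = 0.00551). Rhbg is an ammonium transporter of the Rhesus family (chr3:88242874-88254709). It stood at 1.98, 1.87 and 4.71 FPKM in males, from 23, 25 and 67 counts, and at 3.80, 2.81 and 1.26 FPKM in females, from 130, 82 and 45 counts. The male tumour was the highest of the 6 libraries and the female tumour the lowest. The fit over both sexes gave 0.11 ± 0.71 (SE) and no call (adjusted p = 0.931). Of the exonic bases of Rhbg, 61.4% lie under an exon of Gm38392 on the same strand, so its value is uncertain. Gm38392 itself had between 0 and 6 counts per library.

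The WNT receptor and feedback genes were expressed at low levels throughout. Lgr5 is a receptor for R-spondins and a marker of pericentral hepatocytes (chr10:115450311-115587780). It stood at 0.867, 0.514 and 0.277 FPKM in males, from 69, 47 and 27 counts, and at 0.969, 0.616 and 0.102 FPKM in females, from 227, 123 and 25 counts. Both tumours were below the 4 other libraries. Lgr5 never reached 1 FPKM and so was not among the genes tested. In a fit of all genes with at least 1 count it was lower in tumour than in precancerous liver by -1.85 ± 0.39 (SE, edgeR adjusted p = 0.0175) and than in normal liver by -2.56 ± 0.38 (adjusted p = 0.00306).

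Rnf43 and Axin2 both restrain WNT signalling. Rnf43 is a ubiquitin ligase that removes Frizzled receptors from the cell surface (chr11:87662722-87735539). Its FPKM was 1.24, 2.30 and 1.72 in males and 2.22, 3.09 and 1.49 in females, highest in precancerous liver in both sexes. Its differences were 0.63 ± 0.25 (SE) from normal to precancerous liver, with an adjusted p of 0.318, and -0.77 ± 0.25 from precancerous liver to tumour, with an adjusted p of 0.0793 in edgeR. Neither was called. Axin2 is a scaffold of the complex that degrades beta-catenin (chr11:108920349-108950783). It stood at 0.892, 0.675 and 0.839 FPKM in males, from 46, 40 and 53 counts, and at 1.41, 1.19 and 0.246 in females, from 214, 154 and 39 counts. The 95% counting interval of the male tumour over male precancerous ratio ran from 0.809 to 1.92 and that of the female ratio from 0.142 to 0.295. The joint fit gave -1.01 ± 0.65 (SE) without a call (edgeR adjusted p = 0.305).

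Tbx3, a transcription factor and beta-catenin target (chr5:119670669-119684724), stood at 1.31, 1.83 and 0.874 FPKM in males and at 1.98, 2.66 and 0.278 in females. Precancerous liver was highest and the tumour lowest in both sexes. Tbx3 fell by 2.14 ± 0.56 (SE) from precancerous liver to tumour, with an edgeR adjusted p of 0.0472 that missed the threshold in 8 of 15 alternative analyses. Against normal liver the difference was -1.72 ± 0.57, with an adjusted p of 0.0727. Tbx3os1, on the opposite strand, covers 1.74% of the exonic bases of Tbx3 and stood at 1.17, 0.584 and 1.33 FPKM in males and at 1.57, 1.37 and 0.115 in females.

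Over the group, 4 of 9 tested genes were called lower in tumour than in precancerous liver (Cyp2e1, Oat, Tbx3 and Cyp1a2) and none higher. At an unadjusted p under 0.05 there were 5 lower and none higher, DESeq2 called 4 lower and none higher, and limma-trend 3 lower and none higher. Of all tested genes, 12.1% were lower and 13.8% higher by edgeR after adjustment. DESeq2 called 1304 of them lower and 1338 higher, and limma-trend 1141 lower and 1548 higher. The share at an unadjusted p under 0.05 was not computed. The median log2 fold change of the 9 genes was -1.53, against 0.026 over all tested genes. Tbx3 and Axin2 stayed under 1 FPKM in both tumours and passed the filter only through the other libraries, where they were higher; of the 7 remaining genes 3 were called lower. In the fit of all 22081 genes with at least 1 count in a library, which held all 10 genes, 6 were called lower (Lgr5 and Rnf43 besides the 4 above) and none higher, beside 7.36% of genes lower and 8.33% higher. Both tumours lay below the 4 other libraries in FPKM for 6 of the 10 genes, against 16.1% of tested genes. The calls depended on single libraries, as did calls over all tested genes, which fell most without either precancerous library. With 1 library left out, the difference ran from -4.93 to -2.58 for Cyp2e1 and from -3.75 to -2.21 for Oat. For Cyp1a2 it ran from -1.71 to -1.42 and for Tbx3 from -3.32 to -1.10. Rhbg, from -1.27 to 1.40, and Axin2, from -2.29 to 0.21, changed direction. Against normal liver, 3 of 9 were lower (Cyp1a2, Oat and Cyp2e1) and none higher, beside 16.1% of all tested genes lower and 17.3% higher. Tbx3 was the fourth at an unadjusted p under 0.05 and by DESeq2, and neither gave a gene as higher. DESeq2 called 1592 of all tested genes lower and 1656 higher. The call of Cyp2e1 was lost without female normal liver. With 1 library left out, its difference ran from -5.09 to -2.75, that of Oat from -4.38 to -2.85 and that of Cyp1a2 from -2.54 to -2.05. Slc1a2, Rhbg and Rnf43 changed direction.

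**Figure D2:**
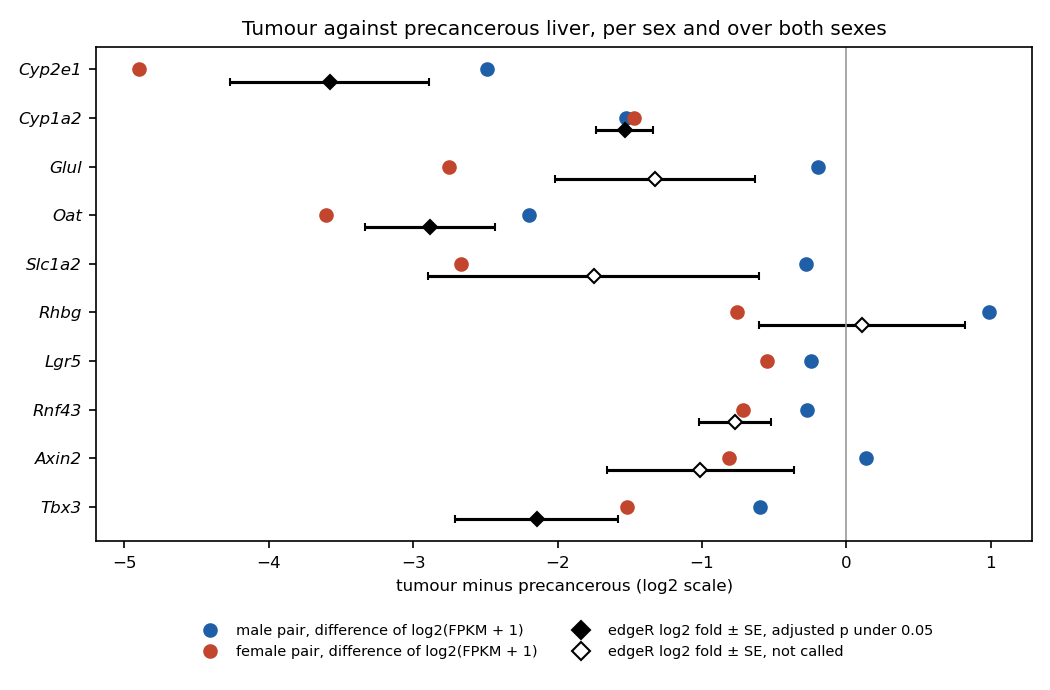
Difference between tumour and precancerous liver on the log2 scale for each of the 10 genes: circles are the single male and female pairs on log2(FPKM + 1), diamonds the edgeR log2 fold change over both sexes with its SE, filled where called. The male and female circles almost coincide for Cyp1a2 and lie on opposite sides of 0 for Rhbg and Axin2; Lgr5 has no diamond because it was not tested.

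Between precancerous and normal liver none of the 9 genes was called by edgeR, beside 0.149% of tested genes lower and 0.105% higher. At an unadjusted p under 0.05 there was 1, Cyp1a2, which DESeq2 alone also called after adjustment. DESeq2 called 158 of all tested genes lower and 210 higher. Cyp1a2 differed by -0.76 ± 0.20 (SE, edgeR adjusted p = 0.193) and Oat by -0.66 ± 0.41 (adjusted p = 0.505). Both were lower in precancerous than in normal liver in each sex. Lgr5 was also lower in both, holding 59.3% of the normal level in males and 63.6% in females, while Rnf43 and Tbx3 were higher in precancerous liver of both sexes. Over the 3 tissues, none of the 9 genes was called between males and females by edgeR, although 37.3% of all tested genes were. None passed an unadjusted p under 0.05, and none was called by DESeq2. DESeq2 called 1871 of all tested genes higher and 1629 lower in males. Without the male tumour 5 of the 9 were called between the sexes, beside 1776 of 11435 tested genes higher and 1956 lower in males. Without the female tumour it was also 5, beside 1899 genes higher and 1757 lower.

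Most of these genes were lower in the female than in the male tumour. In the single pairs, which have no replicates and were not tested, 3 genes were at least 2-fold lower in the male tumour than in male precancerous liver on the log2(FPKM + 1) scale (4.7% of tested genes), and 6 in females (4.85% of tested genes). For 9 of the 10 genes the female change lay below the male one, as for 54.2% of tested genes, and for 5 it lay at least 1 log2 unit below, as for 2.06% of tested genes. Those 5 were Glul, with a female minus male difference of -2.55, Cyp2e1 with -2.41, Slc1a2 with -2.39, Rhbg with -1.75 and Oat with -1.40. Cyp1a2 was the exception, at 0.055. The pseudocount of 1 understates changes of genes near 1 FPKM, such as Lgr5 and Axin2. With 0.1 in its place the male count remained at 3, while all 10 genes were at least 2-fold lower in the female pair. At 0.1, 8 had a female change at least 1 unit below the male one. The shares of tested genes given here hold for a pseudocount of 1. They were not computed for 0.1, so the counts at 0.1 cannot be set beside them. Compared directly, 9 of 10 genes had a lower FPKM in the female than in the male tumour (57.3% of tested genes), and 5 were at least 2-fold lower on log2(FPKM + 1) (6.72% of tested genes). The female tumour was the lowest of the 6 libraries for 8 of the 10 genes, against 21% of tested genes. It was lower than both other female libraries for all 10 genes (37.7% of tested genes), and the male tumour was lower than both other male libraries for 6 (35.9%).

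**Figure D3:**
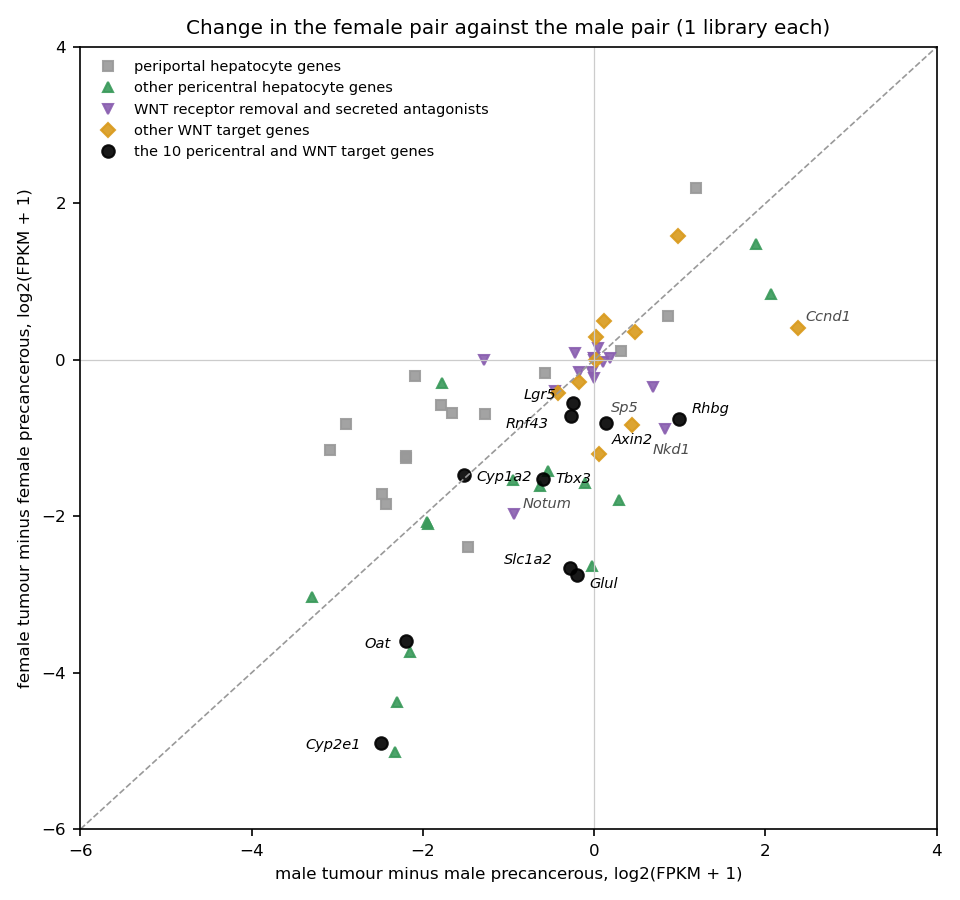
Difference between tumour and precancerous liver on log2(FPKM + 1) in the female pair (y axis) against the male pair (x axis), 1 gene per point, for the 10 genes and 4 other lists; the dashed line marks equal change. Of the 10 genes, 9 lie below the line, while 5 of 15 periportal genes lie at least 1 unit above it and none that far below.

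Further pericentral genes were described from a list of 15, all tested. Between tumour and precancerous liver 8 were lower, 2 higher and 5 not called, and the median log2 fold change was -1.53. Among all tested genes 12.1% were lower and 13.8% higher. The P450 genes Cyp2c29 and Cyp27a1, the latter an enzyme of bile acid synthesis, fell by 3.24 ± 0.21 (SE) and 2.10 ± 0.16, both called by edgeR. Rgn (regucalcin, an enzyme of vitamin C synthesis in mice) fell by 3.30 ± 0.58. Slco1b2, a hepatic uptake transporter, was also called lower and stood at 259, 195 and 43.3 FPKM in males and at 148, 143 and 9.79 in females. Cyp7a1, the rate-limiting enzyme of bile acid synthesis, stood at 17.9, 57.6 and 10.6 FPKM in males and at 47.6, 69.9 and 1.20 in females, again lowest in the female tumour. Cyp2a5 and Slc1a4 rose, by 1.47 ± 0.38 and 2.20 ± 0.26. Cyp2a and Cyp2c genes share reads with near-identical copies, so their values are uncertain.

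Periportal genes, those of the opposite zone, fell in similar number. Of 15 listed, all tested, 8 were lower in tumour than in precancerous liver, 1 (Cdh1, E-cadherin) was higher and 6 were not called. The median was -1.24, and 12.1% of all tested genes were lower and 13.8% higher. The airway and liver P450 gene Cyp2f2 stood at 563, 331 and 58.3 FPKM in males and at 344, 193 and 58.0 in females. Pck1, the entry enzyme of glucose synthesis, stood at 540, 392 and 45.2 FPKM in males and at 781, 504 and 226 in females. In the single pairs, which were not tested, none of the 15 periportal genes changed at least 1 log2 unit further down in females than in males and 5 changed at least 1 unit less or rose more. Of the 15 further pericentral genes, 7 lay at least 1 unit below and 1 above, against 235 below and 182 above among the 11435 tested genes. Fewer calls were left in both lists without either precancerous library, as over all tested genes.

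Rspo3 and Wnt2, signals supplied to hepatocytes, fell from precancerous liver to tumour. They were the 2 of 16 WNT ligands and R-spondins expressed highly enough to be tested, and both passed that filter only through normal and precancerous liver, where they were higher. The fit of all genes with at least 1 count held 14 of the 16. In it 3 were called lower (Rspo3, Wnt2 and Wnt5b) and none higher, beside 7.36% of genes lower and 8.33% higher. Rspo3, the R-spondin of central vein endothelium, stood at 3.34, 2.61 and 0.853 FPKM in males and at 2.89, 1.97 and 0.861 in females (-1.39 ± 0.24 SE, edgeR adjusted p = 0.0163). Wnt2, an endothelial ligand, stood at 1.55, 1.67 and 0.302 FPKM in males and at 1.83, 1.59 and 0.144 in females (-3.05 ± 0.41 SE, adjusted p = 0.00847). Between the male and female tumours Rspo3 was close to equal. Wnt2 was lower in the female tumour, as was Wnt5b, at 0.386 and 0.192 FPKM. Wnt4 was higher there, at 0.0324 and 0.297 FPKM. Wnt2, Wnt5b and Wnt4 had at most 23 counts in a tumour library. Whether these levels bear on Glul, at 205 and 44.5 FPKM, was not tested. Wnt9b, also made by central vein endothelium, was below the test's level, with 0.369, 0.514 and 0.181 FPKM in males and 0.401, 0.368 and 0.192 in females. Endothelial markers moved with these genes in part: of 8, Clec4g, Stab2 and Tek were lower in tumours and Pecam1 higher. Among all tested genes 12.1% were lower and 13.8% higher. The 8 endothelial markers summed to 45.0 and 47.4 FPKM in the male and female tumours against 52.6 to 68.6 in the other 4 libraries. Their part in the result was not tested. Neither Rspo3 nor Wnt2 was called without the male or without the female precancerous library.

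**Figure D4:**
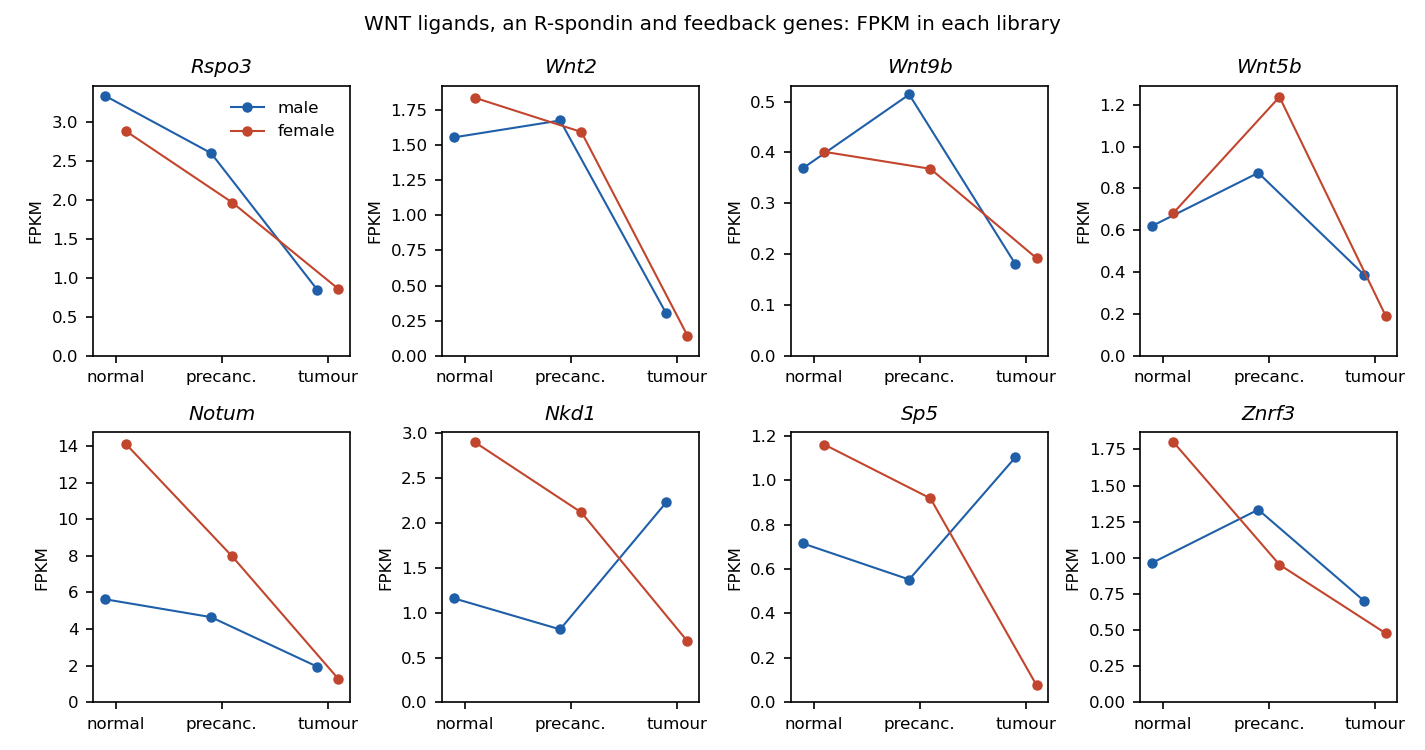
FPKM of 4 WNT ligands or R-spondins (top) and 4 feedback or target genes (bottom) in each of the 6 libraries, with tissue on the x axis and a linear y axis from 0; a point is 1 library. Rspo3, Wnt2, Wnt9b and Wnt5b were lower in the tumours of both sexes, whereas Nkd1 and Sp5 were higher in the male tumour and lower in the female tumour than in the other libraries of that sex.

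Among receptors, inner components and inhibitors of the pathway, 1 gene per list was called between tumour and precancerous liver. As 12.1% of all tested genes were lower and 13.8% higher, these calls are not read as a result about the pathway. Of 15 receptors and co-receptors 10 were tested and 1, Fzd7, was lower in tumour than in precancerous liver. Of 11 genes of the beta-catenin destruction complex, all tested, 1 (Amer1) was lower and none higher. Amer1 reached 1 FPKM only in male and female precancerous liver, at 1.18 and 1.07. It passed the filter only through that tissue, where it was higher. Ctnnb1, beta-catenin itself, stood at 30.7, 30.6 and 42.0 FPKM in males and at 20.6, 21.3 and 33.9 in females. It was not called between tumour and precancerous liver (edgeR adjusted p = 0.0631) and was higher in tumour than in normal liver by 0.56 ± 0.16 (SE, adjusted p = 0.0488), a call lost on leaving out any 1 of the 6 libraries (adjusted p 0.0604 to 0.225). Of 8 TCF/LEF complex genes 4 were tested and 1, the co-activator Bcl9l, was lower. Of 15 inhibitors 5 were tested and 1, Notum, was lower. None of the calls of Fzd7, Amer1, Bcl9l and Notum held without the male precancerous, the female precancerous or the female tumour library.

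Among 15 inhibitors 3 (Notum, Nkd1 and Wif1) had a female change at least 1 log2 unit below the male one, and 1 (Dkk4) that far above. Among 10 further targets 3 (Sp5, Tnfrsf19 and Ccnd1) lay that far below and 0 above. Of 11435 tested genes 235 lay below and 182 above. Notum passed narrowly, at -1.04. Wif1 and Dkk4 had at most 30 and 13 counts in a library and were not tested. Notum, a secreted enzyme that inactivates WNT ligands, stood at 5.63, 4.66 and 1.95 FPKM in males and at 14.1, 7.97 and 1.28 in females, lowest in the tumour in both sexes. Nkd1, a cytoplasmic inhibitor, stood at 1.16, 0.814 and 2.23 FPKM in males and at 2.90, 2.12 and 0.681 in females. Sp5, a transcription factor induced by beta-catenin, stood at 0.715, 0.553 and 1.10 FPKM in males and at 1.16, 0.918 and 0.0775 in females. In both Nkd1 and Sp5 the male tumour was the highest male library and the female tumour the lowest of all 6. Of the 10 further WNT targets 8 were tested: Myc and Sox9 were higher in tumour than in precancerous liver, Prox1 was lower. The other 5 were not called, and among all tested genes 13.8% were higher and 12.1% lower. The Sox9 call was lost without either precancerous library and without the female tumour. Ccnd1 (cyclin D1), a cell cycle gene with many inputs, stood at 5.51, 7.17 and 41.4 FPKM in males and at 32.2, 20.6 and 27.7 in females.

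The genes most like Glul and Cyp2e1 were sought among the 6294 genes with at least 5 FPKM in a library, by the distance between centred log2(FPKM + 1) profiles over the 6 libraries. For Glul these were Nxpe2, Glns-ps1, Akr1c20, Slc1a2 and Lect2, with Pearson r between 0.94 and 0.99 as a description. Slc1a2 is thus among the 5 nearest, by a measure that used the same 6 values per gene as given above. Both genes were lowest in the female tumour. In males, ordered normal, precancerous, tumour, Slc1a2 stood at 5.61, 8.31 and 6.67 FPKM and did not follow Glul, at 304, 235 and 205. Whether the likeness reflects a shared zone was not tested. Glns-ps1 is named as a glutamine synthetase pseudogene and stood at 9.21 and 8.03 FPKM in male precancerous liver and tumour and at 7.01 and 1.02 in the female pair; its reads may be shared with Glul. Lect2, another pericentral gene, stood at 122, 63.9 and 78.2 FPKM in males and at 131, 95.9 and 27.0 in females. For Cyp2e1 the nearest were Pon1, Cyp2c37, Rgn, Prodh and Cyp2c44, with r between 0.98 and 0.99. The proline-degrading enzyme gene Prodh stood at 34.9, 35.4 and 5.26 FPKM in males and at 44.7, 38.0 and 2.13 in females.

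Markers of other liver cells changed between the same tissues. From precancerous liver to tumour, 12.1% of all tested genes were lower and 13.8% higher. Macrophage markers were lower in tumour than in precancerous liver for 7 of 8, with a summed level of 65.5 and 105 FPKM in the male and female tumours against 152 to 307 in the other libraries. Of 8 cholangiocyte markers 4 were tested and 2 (Spp1 and Sox9) were higher, with a summed level of 123 and 142 FPKM in tumours against 11.2 to 17.5 elsewhere. Most of that sum was Spp1, at 115 and 129 FPKM in the tumours, and the other 7 markers summed to 7.94 and 12.9 FPKM in tumours against 4.45 to 5.66 elsewhere. Of 8 stellate cell and fibroblast markers 4 were higher and 2 lower, and the sums were 77.5 and 119 FPKM in tumours against 73.3 to 156 elsewhere. Of 8 T and NK cell markers 4 were tested and 2 (Nkg7 and Cd3e) were higher. Their sums were 5.38 and 6.56 FPKM in tumours against 1.39 to 7.26 elsewhere, over all 8 markers. Nkg7 reached 1 FPKM only in the tumours, at 1.45 and 1.25. The macrophage marker Timd4 and the stellate cell marker Lrat, both called lower, stayed under 1 FPKM in both tumours. Nkg7, Timd4 and Lrat thus passed the filter only through the tissues where they were higher. The part of these cells in the levels of the 10 genes was not tested.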

How the data were processed

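The authors deposited 1 table with raw counts and FPKM for every gene in all libraries. The counts are whole numbers, and the deposited FPKM values equal the count divided by gene length and library total (ratio 0.99996 to 1.00004 for genes of at least 20 counts). The submitters' processing notes name TopHat2 2.0.9 and Cuffdiff as tools and GRCm38 and mm10 as builds. Libraries were made with a stranded kit, per the labels' protocols; the strand setting used in counting was not stated in these sources. Gene ends were those of the table.

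Genes reaching 1 FPKM in 2 or more libraries (11435) were tested on the counts with edgeR 4.0.16 (R 4.3.3, TMM, quasi-likelihood, sex plus tissue over 6 libraries, 2 residual degrees of freedom), checked on simulated data. A gene was called at an adjusted p under 0.05. With 1 library per group, single pairs were given as differences of log2(FPKM + 1) without a test. Intervals are exact 95% Poisson intervals and cover counting error only. Alternatives used DESeq2 1.42.0, limma 3.58.1, other filters, scalings and pseudocounts, and left out each library.

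The members and the lists were chosen with earlier results of these data known. Named genes were the 10 members, from each list up to 4 genes with the largest mean difference between tumour and precancerous liver, WNT ligands and R-spondins of at least 0.5 FPKM, and the 5 genes nearest Glul and Cyp2e1. Other genes were named after their values were seen, where a count of 5 or fewer is spelled out. Of the exonic bases of Glul, Slc1a2, Axin2 and Tbx3, at most 3.80% lie under an exon on the opposite strand.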

Additional observations from a re-analysis of the deposited data

Results flagged for a closer look

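Between tumour and precancerous liver Rhbg was higher in the male pair and lower in the female pair, and the female change lay below the male one by 1.75 on the log2(FPKM + 1) scale (difference -1.75). Between tumour and normal liver the same opposite directions were seen for Slc1a2 (difference -2.83), Rhbg (-2.02) and Rnf43 (-0.66). Each of these single-library changes exceeded its counting interval, but with 1 library per group the difference between the sexes was not tested.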

How the results depend on the processing

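Each group holds 1 library, male libraries held 5996585 to 7347064 counts, and the model has 2 residual degrees of freedom. No paired analysis was possible because the labels carry no replicate numbers; sex is a term of the model. Values follow in the order of the comparisons.

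For tumour versus precancerous liver, genes called numbered 2965, with 113 when sex was not modelled and 458 to 2933 with 1 library left out. Of the 10 genes, 0 were called without the sex term and 0 to 9 with a library left out. The further pericentral genes called (10) were 0 without the sex term and 4 to 13 with a library left out, and the periportal genes (9) were 0 and 0 to 11. For tumour versus normal liver, 3819 genes were called, 2480 with the 4 libraries of the 2 tissues alone, 690 without the sex term and 1923 to 3241 with a library left out. Members called were 5 without the filter and 2 to 8 with a library left out. For precancerous versus normal liver, 29 genes were called, 368 by DESeq2, 3 and 10 by limma-trend with pseudocounts of 1 and 0.1, 183 without the filter, 213 with 4 libraries, 0 without the sex term and 0 to 219 with a library left out. DESeq2 called 1 member, Cyp1a2. Between males and females 4270 genes were called (2187 higher in males, 2083 lower), 1237 without the tissue term and 762 to 3732 with a library left out. The split was 2737 to 1602 with library totals alone. Members called were 0 to 5 with a library left out. With log2(FPKM + 0.1), 10 genes were at least 2-fold lower in the female pair and 8 had a female change at least 1 unit below the male one. The shares of all tested genes were not computed at that pseudocount.

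Direction turned for tumour versus precancerous liver in Rhbg, at -0.040 with 4 libraries and -1.27 to 1.40 with a library left out, and in Axin2, at -2.29 to 0.21, which was positive without the female tumour. For tumour versus normal liver it turned without the female tumour in Slc1a2 (-4.26 to 0.058 over libraries left out), Rhbg (-1.58 to 1.07) and Rnf43 (-0.53 to 0.28), and without female normal liver in Rhbg (0.71) and Rnf43 (0.28). The causes were not tested.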

Other observations

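Cebpa, a hepatocyte transcription factor among the markers, stood at 5.19 FPKM in female normal liver and between 31.8 and 54.2 FPKM in the other 5 libraries. No explanation was tested. Dkk4, a secreted WNT antagonist, stood at 0.895 and 1.45 FPKM in male normal and precancerous liver and was listed at 0 in the male tumour and in all 3 female libraries. Cldn2, a pericentral tight junction gene, stood at 3.96, 3.80 and 3.73 FPKM in males and at 10.25, 24.3 and 3.05 in females, ordered normal, precancerous, tumour. It differed between tumour and precancerous liver by -0.021 in males and by -2.64 in females on the log2(FPKM + 1) scale. The female difference came with a high value in female precancerous liver. The male and female tumours were closer in Cldn2 than in Glul or Slc1a2.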
